A study of Homo sapiens with 3 samples.

Results

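The targets described here are the HindIII fragments on the telomeric side of the captured region of chromosome 16 in a Capture Hi-C experiment. They were chosen by position alone: every target fragment whose midpoint lay between 74183981 and 79180445 on chromosome 16 (GRCh37), paired with every captured fragment of that chromosome. This gave 1374 target fragments of 17969 target fragments in all 6 captured regions, or 7.65%. The captured region itself ran from 73599933 to 74183980 and held 190 fragments, of which 189 had counts outside it, so 259686 pairs of a captured and a telomeric fragment were possible. The fragments had a median length of 2430.5 bp, with a range of 12 to 28054 bp, and each of the 1374 had a count in at least 1 library.

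In Capture Hi-C, neighbouring DNA in fixed nuclei is cut and ligated, and the ligated pairs with one end in a chosen region are pulled out with probes. Contact between a pair of fragments falls steeply with their distance along the chromosome, and chromosomes are further folded into domains within which contacts are frequent and across whose edges they drop. A level is therefore best read against what the distance alone would give. The stretch between PSMD7, which encodes a subunit of the proteasome lid, and WWOX, a very long gene that spans a common fragile site, holds 34 other protein-coding genes in the order of the RefSeq table. Among them are GLG1, a Golgi protein, MLKL, the effector of necroptosis, the chymotrypsinogen genes CTRB1 and CTRB2, the adaptor BCAR1, the telomere protein TERF2IP, the neuronal adhesion gene CNTNAP4 and the protease gene ADAMTS18. That table follows another genome build, so no gene was placed on a window and no sequence is shown.

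The series asked which sequences contact 3 breast cancer risk loci; the labels gave no role for the region on chromosome 16. BT483 is a breast cancer line from a primary invasive ductal carcinoma, grown with insulin and lysed with trypsin at 0.25%. SUM44 is a breast cancer line from a pleural effusion, grown without phenol red and with estradiol at 1 nM, and GM06990 is a lymphoblastoid line of B lymphocytes; both of these were lysed with a dounce. All 3 lines were fixed for 5 min in formaldehyde at 2%, so line, tissue, medium and lysis cannot be told apart. Each line was 1 sample with counts of 2 replicates. Whether the replicates came from separate cultures is not stated, so the p-values cover no more than the variation among libraries, possibly technical. No molecular identifiers were used in amplification, and intervals cover counting error only.

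The telomeric targets held a smaller part of the near contacts than their centromeric counterparts in every library. The counts were 27114 and 57663 in BT483 replicates 1 and 2, 32252 and 31188 in GM06990, and 57355 and 51367 in SUM44. The telomeric share of the contacts within 5 Mb of the capture was 29.1% and 30.3% in BT483, 33.0% and 35.0% in GM06990, and 37.5% and 37.2% in SUM44. The exact Clopper-Pearson 95% interval of the first of these ran from 28.8% to 29.4%. The 3 lines did not overlap, with means of 29.7% ± 0.853, 34.0% ± 1.45 and 37.4% ± 0.197 (SD, n = 2), but with 2 libraries a line the smallest p of an exact two-sided permutation test is 0.333. For targets within 1 Mb BT483 and GM06990 did overlap, at 28.7% ± 2.26 and 28.5% ± 0.790 (SD, n = 2). Within 5 Mb the other 5 captured regions had telomeric shares of 38.0% or more in each library. Taken over all contacts outside the capture, including other chromosomes, the share was 4.80% and 6.66% in BT483, 6.65% and 3.67% in GM06990, and 12.8% and 12.1% in SUM44. On that scale BT483 and GM06990 overlapped and SUM44 lay above both.

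Counts fell with distance at much the same rate in GM06990 and SUM44. The slope of log10 contacts on log10 distance was -0.705 and -0.759 in GM06990 and -0.761 and -0.736 in SUM44. In BT483 it was -1.003 in replicate 1 and -0.774 in replicate 2, so the replicates of this line differed by more than the lines did. From 100 kb outward the slopes were -1.19 ± 0.0401 in BT483, -0.952 ± 0.0717 in GM06990 and -1.04 ± 0.0101 in SUM44 (SD, n = 2), and on that range BT483 was steeper than both other lines in each replicate.

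**Figure D1:**
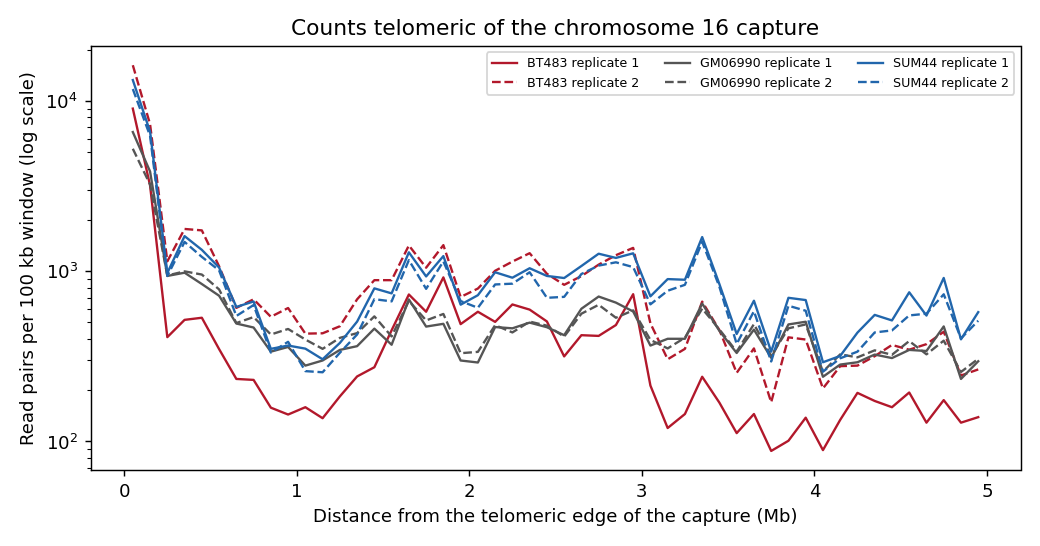
Read pairs per 100 kb window (log scale) against the distance from the telomeric edge of the capture, 1 line per library. All 6 libraries drop between the second and the third window, and the BT483 libraries drop again at 3000 kb, by more than the other lines do.

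The plot of counts by distance shows 2 abrupt changes that need no model of the background. The first lay close to the capture and was common to all lines. From the second window (74284143 to 74383155) to the third (74383156 to 74480432) the count fell 7.77-fold and 6.38-fold in BT483, 4.11-fold and 3.42-fold in GM06990, and 6.76-fold and 6.66-fold in SUM44. The second lay at 3000 kb and was large in both BT483 libraries. From the window 77085509 to 77183903 to the window 77287454 to 77384457, 2 windows on, the count fell 6.11-fold and 4.51-fold in BT483, against 1.45-fold and 1.67-fold in GM06990 and 1.42-fold and 1.38-fold in SUM44.

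Within the first 150 kb the contacts were near the level of the background. The background is the count expected for a fragment from its distance and from the capture efficiency of each captured fragment, fitted in each library over both sides of the region. The 2 windows from 74183981 to 74383155 had ratios of observed to expected counts of 0.909 and 1.06 in BT483, 0.896 and 0.869 in GM06990, and 1.11 and 1.11 in SUM44. They held 45.0% and 40.8% of all telomeric counts in BT483, 32.3% and 27.1% in GM06990 and 34.6% and 35.0% in SUM44. Both BT483 libraries thus held a larger part of their telomeric contacts next to the capture than the other 4 libraries did.

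The fall itself fitted within a few fragments. The fragment from 74330045 to 74333689 had 240 and 247 counts in GM06990, 322 and 325 in SUM44, and 72 and 421 in BT483, with ratios of 1.57, 1.94, 1.48, 1.63, 0.48 and 1.52 in the same order. The replicates of BT483 fell on both sides of the background there, while those of the other lines did not. The fragment from 74339267 to 74341298 had 103 and 92 counts in GM06990, 135 and 124 in SUM44, and 25 and 104 in BT483. Its next neighbour, 74341299 to 74367751, is 26453 bp long and had only 24 and 42, 53 and 37, and 16 and 44 counts. Its ratios were 0.17 and 0.35, 0.26 and 0.20, and 0.11 and 0.17. All 6 libraries were thus below the background at this fragment. Telomeric fragments of 10000 bp or longer were low as a class, with ratios of 0.582 and 0.413 in BT483, 0.526 and 0.649 in GM06990, and 0.537 and 0.504 in SUM44. The part of fragment length at this fragment was not tested. The fragments of this paragraph were chosen for their place at the fall, after it was seen.

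**Figure D2:**
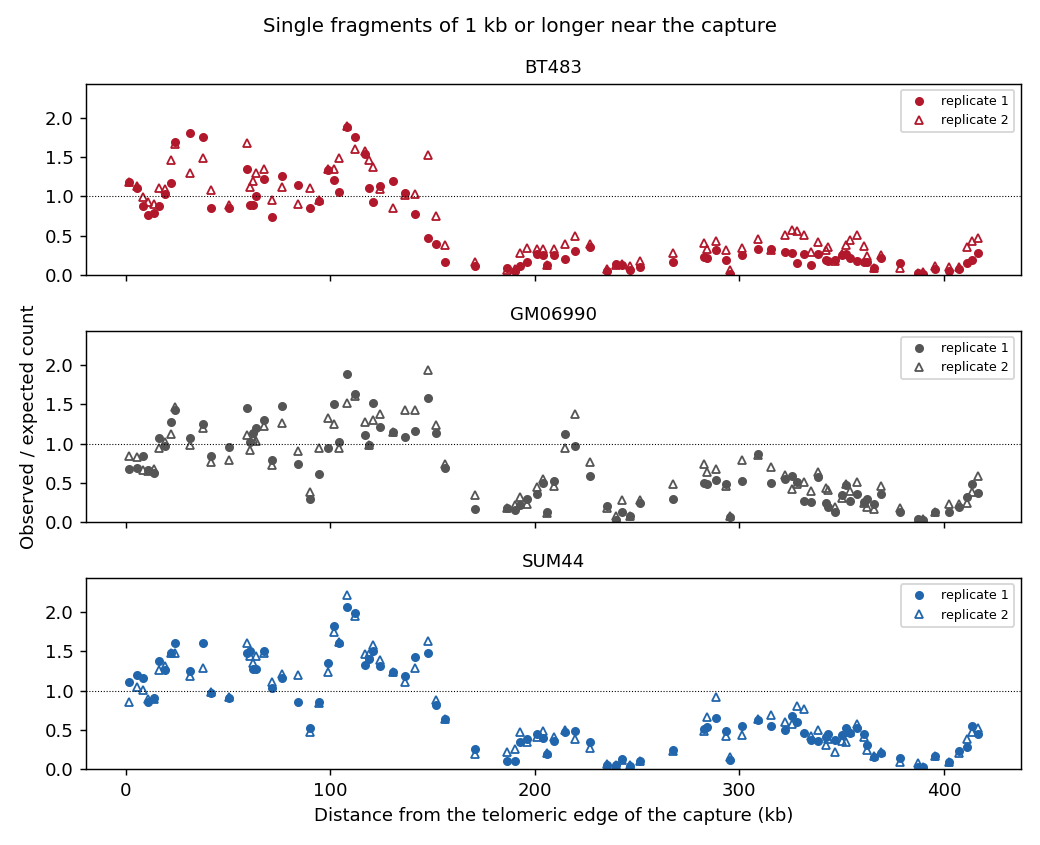
Ratio of observed to expected counts of each target fragment of 1 kb or longer in the first 420 kb, by distance from the edge of the capture, with 1 panel per line and 1 symbol per replicate. Ratios lie around 1 up to about 150 kb and mostly under 0.5 from 170 kb on, and BT483 replicate 1 falls before its replicate 2.

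Beyond the fall lay a stretch of 1100 kb with few contacts in every line. Its limits, like those of each stretch described here, were drawn after the values were seen, so stretches are described and not tested as units, and a count of windows called within one partly restates how it was chosen. The 11 windows from 74383156 to 75483730, 200 to 1300 kb from the capture, held 256 fragments. Their counts were 3055 and 9498 in BT483, 6056 and 6750 in GM06990, and 8000 and 7392 in SUM44. The ratio to the background was 0.169 and 0.247 in BT483, 0.328 and 0.417 in GM06990, and 0.297 and 0.302 in SUM44. In each of these 11 windows all 6 libraries were under 0.5, which held for 3 of the other 550 windows, 2 of them on the centromeric side of the same capture and 1 on chromosome 8. With the background fitted on the telomeric side alone, the 11 windows were less low. Their ratios then ran from 0.35 to 0.79 in BT483, from 0.62 to 0.93 in GM06990 and from 0.43 to 0.80 in SUM44.

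The same distances on the centromeric side held 10.3 and 7.20 times as many counts in BT483, 5.36 and 4.02 times in GM06990, and 5.45 and 5.34 times in SUM44. The background was fitted over both sides, so the low telomeric ratios and the centromeric counts are not separate measurements. The stretch was low from every part of the capture. Split by 4 consecutive blocks of captured fragments, the ratio ran from 0.160 to 0.174 in BT483 replicate 1, from 0.220 to 0.261 in its replicate 2, from 0.302 to 0.470 in GM06990 and from 0.244 to 0.340 in SUM44. The ratio was highest for the block nearest the stretch in 5 of the 6 libraries, the exception being BT483 replicate 2.

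BT483 and SUM44 were each compared with GM06990, which therefore serves as the control of both, so the 2 comparisons are not independent. In the edgeR quasi-likelihood test with Benjamini-Hochberg adjustment over the windows of all 6 regions, 24 of the 50 telomeric windows differed between BT483 and GM06990, 10 of them higher and 14 lower in BT483. Over all 600 windows 28.3% differed, 15% higher and 13.3% lower. Between SUM44 and GM06990 19 of the 50 windows differed, 11 higher and 8 lower in SUM44, against 48.2% of all windows, 20.8% higher and 27.3% lower. Between BT483 and SUM44 16 windows differed, 5 higher and 11 lower in BT483, against 18% of all windows, 11.5% higher and 6.5% lower. The telomeric share of changed windows was thus above that of all windows in both comparisons with BT483 and below it for SUM44 against GM06990. The median log2 change over the 50 windows was -0.08, 0.15 and -0.25 in the same order, and over all windows -0.02, 0.00466 and 0.02. Without GM06990 replicate 2 the comparisons with GM06990 called only 10 and 5 windows, and without BT483 replicate 2 the 3 comparisons called 33, 32 and 27. Without either SUM44 replicate 4 windows differed between BT483 and SUM44.

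The direction of these counts depended on what the libraries were scaled to. With the background fitted on the telomeric side alone, 4 windows were higher and 11 lower in BT483 than in GM06990, 2 higher and 11 lower in SUM44 than in GM06990, and 3 higher and 3 lower in BT483 than in SUM44. With trimmed mean (TMM) factors and no distance background the counts were 0 and 6, 0 and 6, and 0 and 3. With near cis totals they were 4 and 31, 7 and 7, and 0 and 26. With trans totals they were 0 and 0, 36 and 0, and 0 and 31, and the median of all windows moved to 1.46 for SUM44 against GM06990. On the centromeric side the median log2 change of SUM44 against GM06990 was -0.66, against 0.15 on the telomeric side, and both sides share 1 background.

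**Figure D3:**
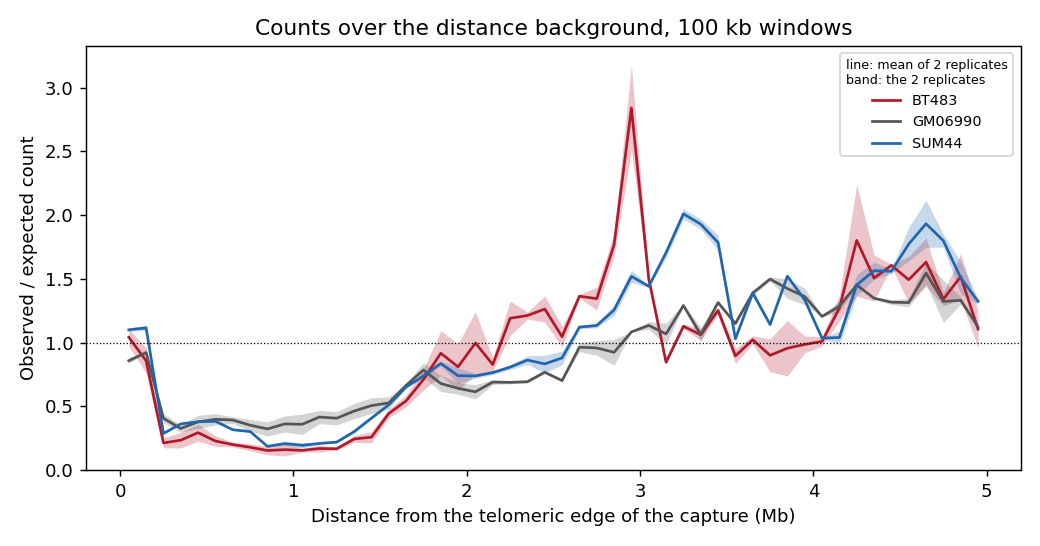
Ratio of observed to expected counts in 100 kb windows against the distance from the telomeric edge of the capture, as the mean of 2 replicates per line with a band between them. The background was fitted over both sides of the capture. All lines are under 0.5 from 200 to 1300 kb, BT483 peaks just before 3000 kb and SUM44 is highest from 3100 to 3500 kb.

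The contact-poor stretch was lower in BT483 than in GM06990, with 9 of its 11 windows past the threshold, all lower, and a median log2 change of -0.96. It had 6 lower windows and none higher in SUM44 against GM06990, with a median of -0.50. The window from 75385052 to 75483730 had 184 and 475 counts in BT483, 345 and 406 in GM06990, and 379 and 332 in SUM44. Its ratios were 0.16 and 0.18, 0.36 and 0.46, and 0.22 and 0.22, so GM06990 lay above both other lines without overlap. The log2 change was -1.26 ± 0.15 (SE; edgeR adjusted p = 0.00106) for BT483 and -0.88 ± 0.15 (adjusted p = 0.00212) for SUM44, each against GM06990. With the telomeric background these were -0.70 (adjusted p = 0.0047) and -0.64 (adjusted p = 0.0033).

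The neighbouring window from 75274888 to 75385051 had 137 and 432 counts in BT483, 299 and 350 in GM06990, and 304 and 255 in SUM44. It gave log2 changes of -1.26 ± 0.18 (edgeR adjusted p = 0.00197) for BT483 and -0.99 ± 0.18 (adjusted p = 0.0032) for SUM44 against GM06990. The other 3 windows named by size of change in both comparisons lay from 74987064 to 75274887. Their log2 changes ran from -1.19 to -1.03 for BT483 and from -0.88 to -0.79 for SUM44. With the telomeric background the stretch had 8 lower windows for BT483 and 7 for SUM44, and none higher. TMM factors left 0 windows called for BT483, with a median log2 change of -0.40, and 6 lower for SUM44. Without GM06990 replicate 2 the counts were 4 lower for BT483 and 2 for SUM44, and the log2 change of the window from 75086444 to 75179331 was -0.85 for BT483 (edgeR adjusted p = 0.14) and -0.52 for SUM44 (adjusted p = 0.28), neither past the threshold.

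As a share of the telomeric counts, which needs no background, the stretch held 11.3% and 16.5% in BT483, 18.8% and 21.6% in GM06990, and 13.9% and 14.4% in SUM44. GM06990 was again above the other libraries, whereas BT483 and SUM44 overlapped. Between BT483 and SUM44, 3 windows of the stretch were lower in BT483. The window from 74884405 to 74987063 was one, with 230 and 684 counts in BT483 and 664 and 633 in SUM44. Its log2 change of -0.73 ± 0.17 (edgeR adjusted p = 0.0266) was -0.40 (adjusted p = 0.067) with the telomeric background and 0.19 (adjusted p = 0.61) with TMM factors. No window of the stretch differed between these 2 lines with the telomeric background.

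One pair of fragments in the stretch stood out in GM06990. The fragment from 74401464 to 74406136 had 127 and 152 counts in GM06990, 38 and 117 in BT483, and 88 and 64 in SUM44. Its ratios were 0.96 and 1.37 in GM06990, at the background, and 0.31, 0.50, 0.48 and 0.39 in the other libraries. The log2 change was -1.47 ± 0.24 (edgeR adjusted p = 0.000419) for BT483 and -1.41 ± 0.24 (adjusted p = 0.000192) for SUM44 against GM06990. The adjacent fragment from 74396461 to 74401463, chosen after its values were seen, had 149 and 105 counts in GM06990, 26 and 94 in BT483, and 86 and 83 in SUM44. Together they span 9676 bp, and the fragments on either side had GM06990 ratios of 0.52 and 0.46, and of 0.59 and 0.77.

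The 2 windows from 75483731 to 75683178, at 1300 to 1500 kb, were still low. Their ratios were 0.217 and 0.289 (BT483), 0.426 and 0.548 (GM06990), 0.370 and 0.350 (SUM44). Both were lower in BT483 than in GM06990 with the joint background, and neither was with the telomeric background. Ratios were higher beyond 1500 kb but stayed under the background as a group. The first window there, 75683179 to 75783953, ran from 0.41 to 0.58 over the 6 libraries. The 7 windows from 75683179 to 76380727 had ratios of 0.805 and 0.604 in BT483, 0.617 and 0.700 in GM06990, and 0.704 and 0.707 in SUM44. BT483 thus overlapped both other lines, and GM06990 lay just below SUM44. With the joint background and all libraries in the fit, no window there passed the threshold in any of the 3 comparisons. Without BT483 replicate 1, 3 windows were lower in BT483 than in GM06990 and 1 was lower than in SUM44. Against GM06990, 2 were higher in BT483 and 1 was higher in SUM44 with the telomeric background.

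From 76380728 to 77183903 the lines parted. These 8 windows, 2200 to 3000 kb from the capture, had ratios of 1.46 and 1.39 in BT483, 0.866 and 0.820 in GM06990, and 1.04 and 1.02 in SUM44. All 8 were higher in BT483 than in GM06990 with the joint background, with a median log2 change of 0.75, and 5 of the 8 were higher in BT483 than in SUM44. With the telomeric background 2 of the 8 were higher and 1 lower in BT483 than in GM06990, and 1 was higher in BT483 than in SUM44. TMM factors left 0 of the 8 called in either comparison. Without GM06990 replicate 2, 5 of the 8 were higher in BT483 than in GM06990. As a share of the telomeric counts the lines were close: 15.2% and 15.4% in BT483, 13.6% and 13.3% in GM06990, and 15.0% and 14.5% in SUM44.

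The last window of the stretch, 77085509 to 77183903, stood apart more clearly. It had 733 and 1371 counts in BT483, 580 and 589 in GM06990, and 1274 and 1057 in SUM44. The ratios were 3.17 and 2.51 in BT483, 1.09 and 1.08 in GM06990, and 1.57 and 1.47 in SUM44, and this was the highest BT483 ratio of the 50 windows. The log2 change was 1.38 ± 0.13 (edgeR adjusted p = 0.000541) against GM06990 and 0.89 ± 0.12 (adjusted p = 0.00522) against SUM44.

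With the telomeric background that window gave 0.64 (edgeR adjusted p = 0.0048) and 0.63 (adjusted p = 0.0093). Its share of the telomeric counts was 2.70% and 2.38% in BT483, 1.798% and 1.89% in GM06990, and 2.22% and 2.06% in SUM44, without overlap between lines. With TMM factors the change was 0.85 (edgeR adjusted p = 0.10) against GM06990. With near cis totals it was -0.25 against SUM44, after removal of the shift in the median of all windows from 0.021 to 0.185, so the order of these 2 lines turned with that scaling. SUM44 was also higher than GM06990 there, by 0.49 ± 0.13 (adjusted p = 0.014), which became 0.01 (adjusted p = 0.96) with the telomeric background.

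Single fragments of that window did not all show the same order of lines. The fragment from 77153040 to 77153370 had 24 and 47 counts in BT483, 5 and 11 in GM06990, and 30 and 23 in SUM44. Its log2 change of BT483 against GM06990 was 2.63 ± 0.40 (edgeR adjusted p = 0.000207). The fragment from 77130014 to 77136011 had 42 and 42 counts in BT483, 22 and 18 in GM06990, and 38 and 27 in SUM44, and was higher in BT483 than in SUM44 by 1.44 ± 0.34 (adjusted p = 0.0417). The ratio of this fragment in BT483 was 6.20 in replicate 1 and 2.62 in replicate 2. Its log2 change against SUM44 was 1.19 (edgeR adjusted p = 0.098) with the telomeric background and 0.48 (edgeR adjusted p = 0.40) with near cis totals. It was 1.56 with DESeq2 (DESeq2 adjusted p = 0.25) and 0.85 without BT483 replicate 1. The call held with the replicate block, without a count minimum, and on chromosomes 3, 16 and 18 only. The fragment from 77153587 to 77161218 exceeded the background in all 6 libraries, with ratios of 6.46 and 3.22 in BT483, 1.61 and 2.27 in GM06990, and 1.74 and 1.87 in SUM44, so GM06990 and SUM44 overlapped there. The fragment from 77091615 to 77092210 had 7 and 32 counts in BT483, 5 and 6 in GM06990, and 40 and 32 in SUM44. Its ratios were 1.00 and 1.95, 0.31 and 0.37, and 1.64 and 1.49, so BT483 and SUM44 overlapped and GM06990 lay below both.

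In steps of 20 kb the fall of BT483 lay between 3000 and 3120 kb. The step from 77183904 to 77203247 had 75 and 110 counts in BT483 and ratios of 3.85 and 2.36. The step from 77287454 to 77305157 had 15 and 50 counts and ratios of 0.49 and 0.67. Over the same steps the ratio in GM06990 went from 1.42 and 1.49 to 0.98 and 0.65, and in SUM44 from 1.27 and 1.78 to 1.27 and 1.16. In between, the step from 77203248 to 77219863 had 1.65 and 1.76 in BT483, 0.66 and 0.72 in GM06990, and 1.36 and 1.09 in SUM44. The step from 77244588 to 77259860 had 1.12 and 1.30, 1.42 and 1.26, and 1.65 and 1.63. The first part of the fall was thus seen in GM06990 as well, which then rose again, whereas BT483 did not.

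SUM44 was highest just beyond that point. The 4 windows from 77287454 to 77684426, 3100 to 3500 kb from the capture, had ratios of 1.84 and 1.89 in SUM44, 1.21 and 1.12 in GM06990, and 1.05 and 1.09 in BT483. All 4 were higher in SUM44 than in GM06990 and all 4 were lower in BT483 than in SUM44, with median log2 changes of 0.66 and -0.85. They held 7.35% and 7.59% of the telomeric counts in SUM44, 5.87% and 5.83% in GM06990, and 2.49% and 3.07% in BT483, again without overlap. At the same distance on the centromeric side SUM44 had only 240 and 193 counts, 0.0569 and 0.0495 times its telomeric ones, against 0.464 and 0.540 times in GM06990. The part of these low centromeric counts in the SUM44 ratio was not tested. The telomeric background, which changes the expected counts of every library, left 1 of the 4 windows higher in SUM44 than in GM06990 and 3 lower in BT483 than in SUM44. TMM factors left 0 and 2.

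That 1 window, 77484924 to 77583536, had 1587 and 1489 counts in SUM44, 646 and 603 in GM06990, and 240 and 663 in BT483. The ratios were 1.89 and 1.97, 1.12 and 1.01, and 1.02 and 1.11. The log2 change of SUM44 against GM06990 was 0.86 ± 0.10 (edgeR adjusted p = 0.000495), and 0.53 (adjusted p = 0.0034) with the telomeric background. For BT483 against SUM44 it was -0.85 ± 0.11 (adjusted p = 0.00414), and -0.63 (adjusted p = 0.0069) with the telomeric background. With TMM factors the change of SUM44 against GM06990 was 0.36 (adjusted p = 0.32).

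The window from 77287454 to 77384457 had the largest log2 change between the breast cancer lines. It had 120 and 304 counts in BT483, 401 and 352 in GM06990, and 899 and 768 in SUM44, and the log2 change of BT483 against SUM44 was -1.01 ± 0.12 (edgeR adjusted p = 0.00414). It was -1.03 (adjusted p = 0.003) with the telomeric background and -1.22 (adjusted p = 0.047) with TMM factors. SUM44 was higher than GM06990 by 0.67 ± 0.12 (adjusted p = 0.0024), and by 0.26 (adjusted p = 0.076) with the telomeric background. At the far end of this stretch the fragment from 77628998 to 77629489 had 31 and 44 counts in SUM44, 14 and 10 in GM06990, and 3 and 6 in BT483. Its log2 change of BT483 against SUM44 was -2.13 ± 0.49 (adjusted p = 0.039).

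**Figure D4:**
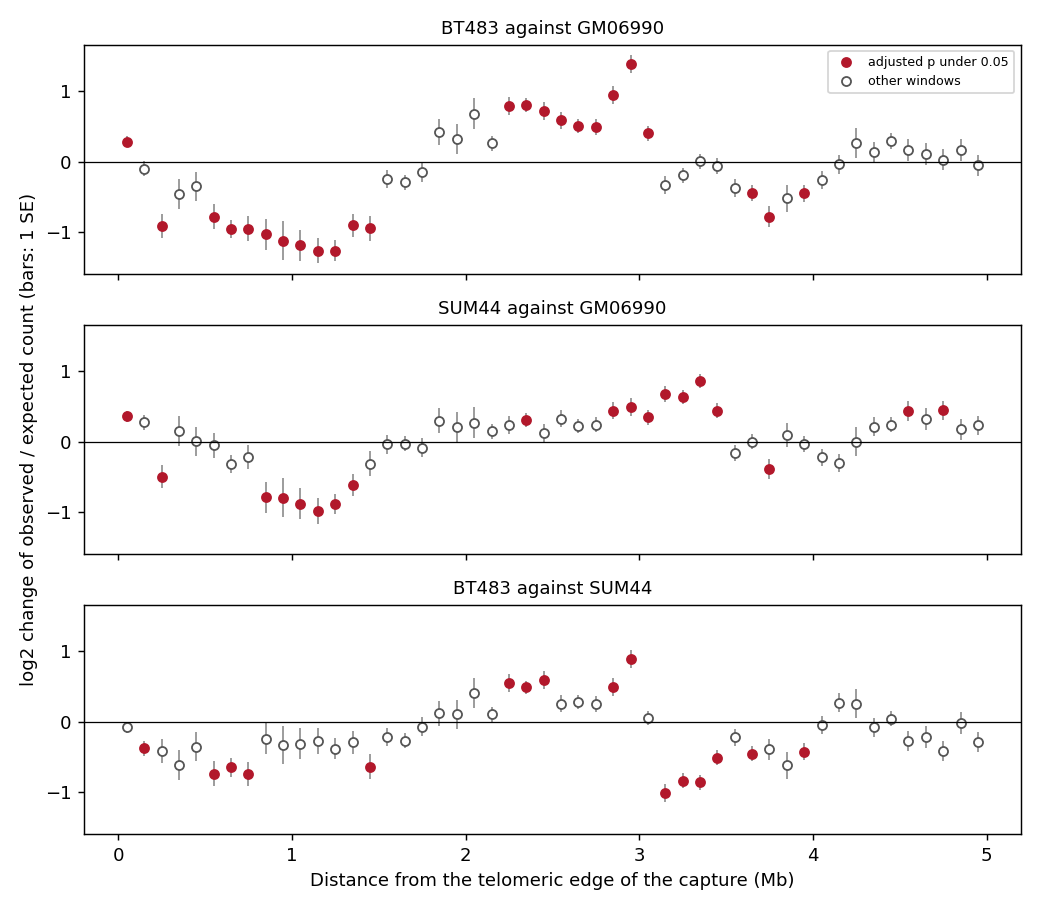
Log2 change of the ratio of observed to expected counts in each 100 kb window, with 1 SE, for the 3 comparisons of lines; filled points passed an adjusted p of 0.05 over the windows of all 6 regions. BT483 is lower than GM06990 in the contact-poor stretch and higher from 2200 to 3100 kb, and lies under SUM44 from 3100 to 3500 kb.

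From 3500 to 4000 kb BT483 lay below the other lines on the joint background. The 5 windows from 77684427 to 78188970 had ratios of 0.932 and 0.987 in BT483, 1.39 and 1.33 in GM06990, and 1.32 and 1.29 in SUM44. Here 3 of the 5 were lower in BT483 than in GM06990, with a median log2 change of -0.45, and none were with the telomeric background or without GM06990 replicate 2. All 5 were lower in BT483 than in GM06990 with TMM factors. Against SUM44 2 of the 5 were lower in BT483, with a median log2 change of -0.42. None were with the telomeric background, where that median was 0.12, and TMM factors left 1. The fragment from 77905945 to 77907151 had 3 and 3 counts in BT483, 26 and 18 in GM06990, and 24 and 28 in SUM44. It was lower in BT483 than in GM06990 by a log2 change of -2.37 ± 0.57 (edgeR adjusted p = 0.00842).

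The last 10 windows, from 78188971 to 79180445, stood above the background in all lines. The ratios were 1.52 and 1.32 in BT483, 1.34 and 1.30 in GM06990, and 1.52 and 1.52 in SUM44, and the 5 windows with the highest lowest value of the 6 libraries all lay here. One of them, 78782349 to 78884544, had 129 and 373 counts in BT483, 340 and 325 in GM06990, and 549 and 563 in SUM44. Its ratios were 1.44, 1.82, 1.63, 1.46, 1.75 and 2.12 in the same order. With the telomeric background they were 0.87, 1.21, 1.17, 1.12, 1.08 and 1.30. On that background the last window, 79082051 to 79180445, had 0.98, 0.83, 0.95, 0.97, 0.94 and 0.98, so the height of the stretch depended on the background. With the joint background no window of the last 10 differed between BT483 and GM06990, and 2 were higher in SUM44 than in GM06990. Scaled to telomeric totals instead, all 10 were lower in BT483 than in GM06990, with a median log2 change of -0.86. With the telomeric background neither of the 2 higher windows of SUM44 was called, and 2 other windows were lower in SUM44 than in GM06990. Among the 2 higher windows, the window from 78884545 to 78984588 had a log2 change of 0.44 ± 0.14 (edgeR adjusted p = 0.027) for SUM44 against GM06990. Its change was 0.18 (adjusted p = 0.30) with the telomeric background and -0.02 (adjusted p = 0.96) with TMM factors. As a share of telomeric counts the stretch held 5.58% and 5.40% in BT483, 9.72% and 10.3% in GM06990, and 9.24% and 8.85% in SUM44.

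**Figure D5:**
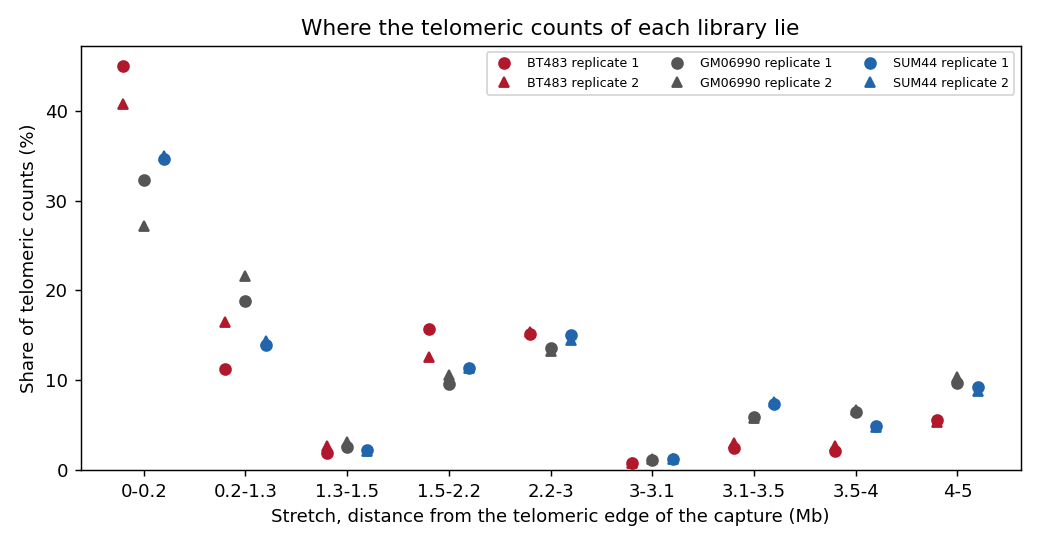
Share of all telomeric counts of each library that fell in each stretch, by distance from the edge of the capture, with 1 symbol per replicate. BT483 is highest in the first 200 kb and lowest beyond 3000 kb, GM06990 is highest from 200 to 1300 kb and SUM44 from 3100 to 3500 kb.

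Of the 1374 fragments 761 had at least 50 counts in 1 line and were tested singly, and the other 613 were not. Between BT483 and GM06990 128 differed, 68 higher and 60 lower in BT483, against 12.1% of all tested fragments, 6.44% higher and 5.7% lower. Between SUM44 and GM06990 81 differed, 66 higher and 15 lower, against 17.3%, 9.48% higher and 7.85% lower. Between BT483 and SUM44 18 differed, 9 in each direction, against 0.806%, 0.398% higher and 0.408% lower. Leaving out 1 library gave 11 to 139, 8 to 138 and 0 to 75 fragments, and the lowest counts against GM06990 came without GM06990 replicate 2. The median log2 change over the 761 was 0.10, 0.24 and -0.17, beside 0.03, 0.07 and -0.03 over all fragments tested.

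The changed fragments were not spread evenly. In the first Mb 43 were lower and 10 higher in BT483 than in GM06990, and in the third Mb 56 were higher and none lower. For SUM44 against GM06990 31 of the 66 higher fragments lay in the fourth Mb. In the fifth Mb only 36 of 266 fragments were deep enough to test. With the telomeric background the 3 comparisons gave 15 higher and 36 lower, 23 and 20, and 2 and 1. With TMM factors they gave 21 and 54, 2 and 51, and 26 and 15, with near cis totals 27 and 135, 52 and 16, and 3 and 138, and with trans totals 0 and 0, 652 and 0, and 0 and 503. DESeq2 called 14 and 12, 8 and 3, and 0 and 0, and for the last of these 217 fragments had an unadjusted p under 0.05 in edgeR.

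Very short fragments gave few counts in every line. The 48 fragments shorter than 100 bp had ratios of 0.394 and 0.489 in BT483, 0.235 and 0.273 in GM06990, and 0.452 and 0.454 in SUM44, against 0.672 to 0.866 for those of 1000 to 5000 bp. One of them, the 26 bp fragment from 74224203 to 74224228, had 63 and 135 counts in BT483, 13 and 8 in GM06990, and 83 and 81 in SUM44. Its log2 changes against GM06990 were 2.39 ± 0.32 in BT483 (edgeR adjusted p = 7.66e-05) and 2.21 ± 0.33 in SUM44 (adjusted p = 4.67e-05). GM06990 was the lowest line for the whole length class, and the part of fragment length in this result was not tested.

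Captured fragments differed among themselves in how many telomeric contacts they made. Among the 173 with at least 50 telomeric counts in each line, the median ratio to the background ran from 0.61 in BT483 replicate 1 to 0.75 in SUM44 replicate 1. The fragment from 73777715 to 73789756 had the highest lowest value, with ratios of 0.838 and 0.993 in BT483, 1.04 and 1.11 in GM06990, and 1.00 and 1.16 in SUM44. The fragment from 73916250 to 73916348, only 99 bp long, had the lowest, with 0.208 and 0.452, 0.356 and 0.491, and 0.501 and 0.349. All 3 of the lowest were 125 bp or shorter, and the 3 highest were 4452 bp or longer.

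No single pair of a captured and a telomeric fragment was called above the background in any line. With a negative binomial background, an adjusted p of at most 0.01 and at least 5 counts, 0 pairs were called, as were 0% of all near pairs of the region. Pairs with at least 5 counts and an unadjusted p under 0.05 numbered 177 in BT483, 146 in GM06990 and 350 in SUM44. A Poisson background called 6, 2 and 19 of the 259686 telomeric pairs. Over all 497259 near pairs of the region, both sides together, it called 251, 31 and 196, or 0.0505%, 0.00623% and 0.0394%. Most Poisson calls of each line were thus centromeric. At this depth 7.68% to 15.8% of the telomeric pairs had any count in a library, so a contact of a single pair was mostly not detectable.

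Among the Poisson calls the pair of 73627856 to 73630540 with 74289979 to 74294040 had 6 and 4 counts in BT483, 2 and 1 in GM06990, and 3 and 1 in SUM44. The count of BT483 was 7.46 times the expected one (exact 95% interval 3.58 to 13.7). In GM06990 the pair of 74101005 to 74108508 with 74330045 to 74333689, the fragment at the inner side of the fall, had 9 and 9 counts, or 4.55 times the expected count (2.70 to 7.20). In SUM44 the pair of 73730792 to 73733362 with 78691337 to 78691659, 4959 kb apart, had 2 and 3 counts and a ratio of 37.4 (12.1 to 87.2), which rests on 5 counts. These pairs were named for the highest ratios among the calls, so their intervals describe counting error and do not test the pairs.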

How the data were processed

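Ligated read pairs were deposited by the authors as counts per pair of captured and target HindIII fragments, with 1 column for each of 2 replicates per line and the trans count of every captured fragment. The submitters' processing notes name CASAVA 1.8 and GRCh37 (hg19), and the aligner is not given in the sources used here. Counts inside the capture and the trans tables were not used here. The members, lists, tests and naming rule were chosen with earlier results of these data known. Named windows are the 5 most raised and 5 most lowered per comparison, the 5 highest and 5 lowest in all libraries, and the first and last. Fragments, captured fragments and pairs were named likewise, 3 or 5 at a time, captured ones only with at least 50 telomeric counts in each line.

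Expected counts came from a negative binomial fit per library and region, with a cubic spline of log10 distance (4 knots) and, as a measure of capture efficiency, the logged trans counts. Counts were summed over captured fragments for each target fragment, or 100 kb window, with at least 50 counts in 1 line. They were tested with edgeR 4.0.16 (quasi-likelihood F test, log expected count as offset, 3 lines in 1 fit), with Benjamini-Hochberg adjustment over all 6 regions at 0.05. The SE of a log2 change is its absolute value divided by the square root of its F statistic. Shares have exact Clopper-Pearson 95% intervals. Pairs were called on summed replicates, and pairs are not replicates. Alternatives were DESeq2 1.42.0, other scalings, backgrounds, regions, window widths and count minimums, a replicate block, and leaving out each replicate. Scaling to telomeric totals was chosen after seeing the data. Changes under a scaling that moved the median of all features by more than 0.1 are given relative to that shift. The tests were tried on simulated data. Scripts ran in R 4.3.3 and Python 3.11.15.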

Additional observations from a re-analysis of the deposited data

How the results depend on the processing

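Counts of telomeric windows and fragments that differed between lines moved with the scaling, and values below follow the order BT483 against GM06990, SUM44 against GM06990, BT483 against SUM44. Called fragments numbered 128, 81 and 18 in the reported fit. They numbered 26, 11 and 0 with DESeq2, 75, 53 and 41 with TMM factors, 75, 53 and 35 with DESeq2 size factors, 51, 43 and 3 with the telomeric background, and 0, 652 and 503 with trans totals. For BT483 against SUM44 they were 141 with near cis totals, 100 with telomeric totals and 41 on chromosomes 3, 16 and 18 only. Called windows numbered 24, 19 and 16. They numbered 6, 6 and 3 with TMM factors or DESeq2 size factors, 0, 36 and 31 with trans totals, 46, 32 and 29 of 100 at 50 kb, and 12, 10 and 10 of 25 at 200 kb, where the windows themselves are more or fewer. With the telomeric background 15 and 6 windows differed in the 2 comparisons of BT483, and with near cis totals 26 between BT483 and SUM44. The median log2 changes of -0.08, 0.15 and -0.25 became -0.37, -0.18 and 0.28 with TMM factors, -0.38, -0.17 and 0.27 with DESeq2 size factors, and -0.84, 0.27 and -0.67 with near cis totals. They were -0.28 and 0.33 for the comparisons with GM06990 under trans totals, -0.037 and 0.0073 for those with SUM44 under the telomeric background, and -0.64 and -0.38 for those with BT483 under telomeric totals. Leaving out 1 replicate gave 11 to 139, 8 to 138 and 0 to 75 fragments, 10 to 33, 5 to 32 and 4 to 27 windows, and medians of -0.11 to -0.09, 0.11 to 0.18 and -0.26 to -0.15. The lowest counts in the comparisons with GM06990 came without GM06990 replicate 2. A line left with 1 library is assumed to vary like the others. The cause of these moves was not tested.

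Named windows in which a direction turned were these. For BT483 against SUM44, 74682201 to 74783078 gave 0.14 with TMM factors and 0.13 with DESeq2 size factors, and 74884405 to 74987063 gave 0.19 and 0.18. With near cis totals the same comparison gave -0.084 at 76380728 to 76486171, -0.26 at 76486172 to 76586681, -0.26 at 76586682 to 76683511, -0.61 at 76984296 to 77085508 and -0.25 at 77085509 to 77183903. At 76984296 to 77085508 it also gave -0.18 with trans totals and -0.32 with telomeric totals, and BT483 against GM06990 gave -0.11 with near cis totals. For SUM44 against GM06990, 78884545 to 78984588 gave -0.019 with TMM factors and -0.016 with DESeq2 size factors. Named windows and fragments otherwise held their direction under each alternative in which they were tested. Of 30 named window results, 20 held it without passing the threshold with TMM factors, 19 with trans totals and 14 with the telomeric background, whereas all 30 passed with DESeq2. Of 18 named fragment results, 13 held it without passing with DESeq2, some of them with no adjusted p, 12 with trans totals and 7 with the telomeric background.

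The replicate numbers did not pair the libraries: the deviations of same-numbered libraries over 600 windows correlated at 0.06 for BT483 and GM06990, -0.07 for SUM44 and GM06990 and -0.02 for BT483 and SUM44, and over the 50 telomeric windows at 0.29, -0.08 and 0.13. With the replicate block 140, 89 and 32 fragments and 29, 20 and 24 windows differed. Pairs above the background numbered 6, 2 and 19 with a Poisson background in BT483, GM06990 and SUM44, and 0 with an adjusted p of at most 0.05 or with distance only. The telomeric share of near contacts was 28.7%, 28.5% and 33.8% within 1 Mb and 25.7%, 27.7% and 29.9% within 2.5 Mb, in the same order of lines. The slopes from 100 kb outward were -1.19, -0.952 and -1.04. BT483 replicates differed by a median of 0.293 on the log2 scale per window, against 0.142 in GM06990 and 0.0651 in SUM44, and the depth of the last Mb left 36 of 266 fragments to test.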
